A study of Mus musculus with 2 samples.

Results

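The genes described here are 45 homeobox and paired box transcription factor genes that lie outside the Hox clusters, out of 21770 protein-coding genes of the mouse. They were chosen by name and not by a threshold on a measured value, with earlier results of these data known. A gene was counted as having a peak when the summit of a peak lay inside its span, or when one of its ends was the nearest end of a protein-coding gene within 50 kb of the summit. The assay was chromatin immunoprecipitation with sequencing (ChIP-seq) in muscle stem cells sorted by flow cytometry from untreated C57BL/6 mice that carry Pax7-YFP KI, a yellow fluorescent protein (YFP) knocked into Pax7. The groups were 1 ChIP library, made with an anti-GFP antibody (green fluorescent protein), and 1 library of input DNA from the same kind of cells, and both came from the knock-in genotype. The age of the mice, the number of animals and whether the YFP is joined to the PAX7 protein are not given in the sources used here, and ChIP from cells without YFP was not analysed here. The list held 2977 peaks, of which 2975 lay on assembled chromosomes, and 20 of them fell to the listed genes. There was no replicate of either library, so no difference was tested, and each 95% interval reflects the counting of fragments, peaks or genes alone.

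The homeodomain is a DNA-binding domain, and many but not all homeodomains recognise short sequences built around TAAT. Several families have features of their own. The TALE class (Meis, Pbx, Pknox, Tgif and Irx) has an extra loop, and the sine oculis class (Six2 to Six6 here) has a domain of its own. The CUT class has CUT repeats. Pax proteins have a paired domain, which some of them carry with a homeodomain and some without. PAX7 itself has a paired domain and a homeodomain and is the usual marker of satellite cells, the stem cells of skeletal muscle. Many homeobox genes lay out the embryo, and among those listed Lbx1, Meox2, Six4, Msx1 and Pitx3 are known from the formation of skeletal muscle.

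Of the 20 peaks, 1 overlapped the bases just before a start site in the RefSeq table. The sequences shown next are the bases just before the start sites of the genes that the results turn on. The sequences come from RefSeq (GRCm38.p6), are written 5′ to 3′ on the strand of the gene and end at the base before the start site. Of the 45 genes, 33 had windows in the RefSeq table, 46 windows in all, each with 250 bases before a start site and 50 bases from it on. The other 12, among them Lbx1, Pknox2 and Zfhx4, had none, so their start sites could not be looked at. The first sequence, which a peak overlapped in part, stands at a start site of Tgif1 that lies within the gene. The second, which no peak overlapped, stands at the outermost start site of the same gene. Dbx1 and Prrx1 had the strongest peaks among the listed genes, and Six2 had a rare homeodomain palindrome. Capitals mark the homeodomain core TAAT and the paired domain core GTCAC on either strand, where matches may overlap.
Tgif1 inner start, chr17:70851735-70851984, minus strand: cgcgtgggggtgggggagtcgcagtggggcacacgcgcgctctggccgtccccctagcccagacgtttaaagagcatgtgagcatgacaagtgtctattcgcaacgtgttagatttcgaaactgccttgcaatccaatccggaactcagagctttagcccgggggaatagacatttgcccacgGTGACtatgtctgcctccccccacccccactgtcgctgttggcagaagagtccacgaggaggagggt
Tgif1 outer start, chr17:70853533-70853782, minus strand: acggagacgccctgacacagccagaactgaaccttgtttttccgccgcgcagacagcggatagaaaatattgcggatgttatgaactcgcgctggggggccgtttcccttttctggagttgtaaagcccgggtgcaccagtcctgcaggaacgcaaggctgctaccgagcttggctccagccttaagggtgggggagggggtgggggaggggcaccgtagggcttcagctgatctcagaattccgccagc
Dbx1, chr7:49636836-49637085, minus strand: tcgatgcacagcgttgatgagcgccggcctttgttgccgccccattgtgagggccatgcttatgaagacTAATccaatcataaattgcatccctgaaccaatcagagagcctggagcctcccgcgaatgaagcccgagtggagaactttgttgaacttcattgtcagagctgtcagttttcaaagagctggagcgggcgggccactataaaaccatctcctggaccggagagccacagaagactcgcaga
Prrx1, chr1:163313651-163313900, minus strand: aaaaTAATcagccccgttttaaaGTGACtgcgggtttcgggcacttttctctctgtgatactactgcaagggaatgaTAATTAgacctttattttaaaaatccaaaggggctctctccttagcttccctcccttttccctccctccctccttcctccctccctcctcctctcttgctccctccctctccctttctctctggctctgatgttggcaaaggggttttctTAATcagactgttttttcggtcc
Six2, chr17:85688255-85688504, minus strand: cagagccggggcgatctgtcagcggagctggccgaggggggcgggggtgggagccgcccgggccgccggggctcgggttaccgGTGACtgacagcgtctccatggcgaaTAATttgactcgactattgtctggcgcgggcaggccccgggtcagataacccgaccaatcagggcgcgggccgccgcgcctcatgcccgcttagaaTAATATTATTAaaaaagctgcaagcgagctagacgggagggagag

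The inner Tgif1 sequence had 217 of its 250 bases under a peak and held 1 match to GTCAC and 0 to TAAT. The outer Tgif1 sequence held neither motif. Dbx1 had 1 match to TAAT, and Prrx1 had 4 to TAAT and 1 to GTCAC. Six2 had 4 matches to TAAT and 1 to GTCAC, and its last run of capitals, TAATATTATTA, is such a palindrome, TAAT and ATTA with 3 bases between them. Among all 32851 sequences of the same length in the table, 54.9% held TAAT, 39.8% held GTCAC and 0.463% held the palindrome with 3 bases between. The Six2 sequence was singled out after its letters were seen, and no peak overlapped it.

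Over the full windows of 300 bases, the intervals for TAAT and GTCAC in the listed genes cover the share in all windows of the table, and the interval for the E-box lies below it. TAAT was in 22 of the 46 windows (47.8%, exact interval 32.9 to 63.1%) against 58.0% of all 32851, and GTCAC was in 21 (45.7%, 30.9 to 61.0%) against 45.6%. The E-box CANNTG, the site of MyoD-like factors, was in 24 (52.2%, 36.9 to 67.1%) against 72.3%, and the AP-1 site TGANTCA was in 1 (2.17%) against 7.81%. The palindrome of TAAT and ATTA with 2 bases between was in 0 windows of the listed genes, with an exact upper limit of 7.71%, and in 0.390% of all windows. A match is a description of the letters. Several windows come from the same gene and may overlap. A peak overlapped 1 of the 46 windows (2.17%, 0.0550 to 11.5%), the inner one of Tgif1, and 821 of the 32851 in the table (2.50%).

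Peaks were found at 11 of the 45 genes (24.4%, exact interval 12.9 to 39.5%), where 9.63% of all protein-coding genes had one by the same rule. These were Dbx1, Prrx1, Pknox2, Meis1, Lbx1, Tgif1, Six2, Zfhx4, Zfhx3, Six4 and Cux1. The 20 peaks were spread unevenly, with 5 at Prrx1, 3 at Tgif1, 2 each at Dbx1, Pknox2 and Zfhx3, and 1 at each of the other genes. In 5 of the 45 genes (11.1%, 3.71 to 24.1%) there was more than 1 peak, against 1.71% of all protein-coding genes. A peak of 10-fold or more stood at 2 of the 45 (4.44%, 0.543 to 15.1%), Dbx1 and Prrx1, against 1.64%. A peak within 1000 bp of the gene's own end was also found at 2 (4.44%), Meis1 and Tgif1, against 4.12%. By the first 2 of these counts the listed genes stood above the background, by the third their interval reached it, and by the fourth they were near it. None of these counts allows for the stretch of DNA in which the rule gives a summit to a gene. That stretch had a median of 103.1 kb for the listed genes and 49.6 kb for all protein-coding genes. Only the first count is split by size, further below.

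**Figure D1:**
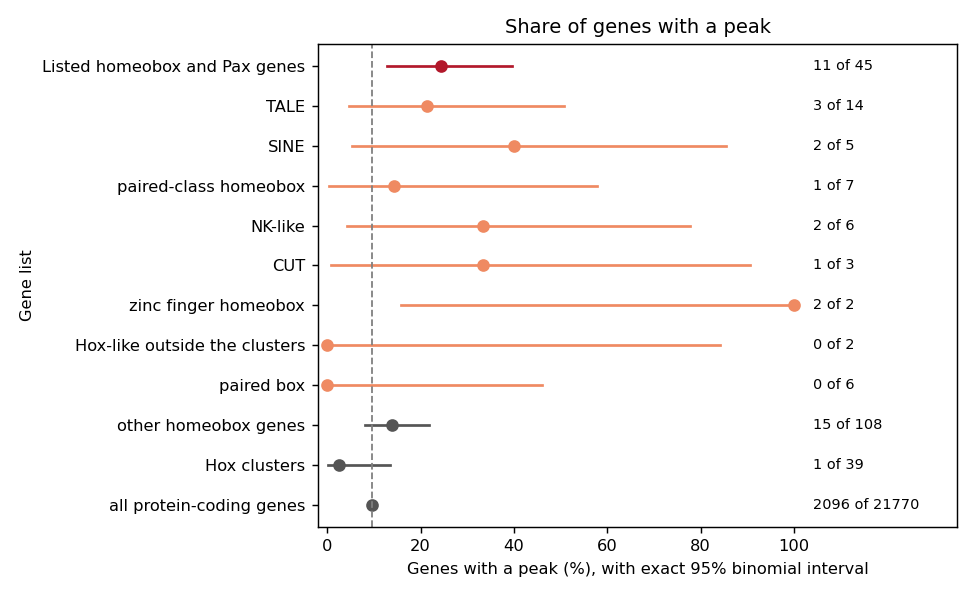
Share of genes with a peak (x axis, percent) for the listed genes, their families (SINE stands for sine oculis, and the Hox-like genes are Meox1 and Meox2), the other homeobox genes, the Hox clusters and all protein-coding genes (y axis), with exact 95% binomial intervals and a dashed line at the share of all protein-coding genes. The listed genes stand at 24.4%, and the intervals of the single families are wide.

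Of the families, the zinc finger homeobox genes had peaks at 2 of 2 members, the sine oculis class at 2 of 5, the NK-like genes at 2 of 6, the CUT class at 1 of 3, the TALE class at 3 of 14 and the paired-class homeobox genes at 1 of 7. The 6 paired box genes Pax1, Pax2, Pax5, Pax6, Pax8 and Pax9 had 0, with an exact upper limit of 45.9%, and the Meox genes had 0 of 2. By the same rule 9.63% of all protein-coding genes had a peak, and the exact interval of every family but the zinc finger genes covers that share. The zinc finger genes (15.8 to 100%) had a median length of 440 kb, against 17.2 kb for all protein-coding genes. These counts are too small to order the families.

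The folds of the 20 peaks lay within the range of the whole list, and the interval of their median covers the median of all peaks. Fold enrichment, as deposited by the authors, divides the pileup plus 1 by the local background plus 1, where the pileup counts ChIP fragments at the summit. The 20 peaks had a median of 8.15-fold (95% order-statistic interval 6.66 to 8.60, quartiles 6.66 and 8.66), and the 2975 peaks a median of 7.35 (quartiles 6.27 and 8.82). The pileup over the summit ranged from 10 to 28 ChIP fragments with a median of 16, against a median of 15 in all peaks. The local background, taken from the input and never below the genome-wide level, stood at that lowest level of 0.977 fragments at 12 of the 20 peaks (60%, 36.1 to 80.9%), against 44.1% of all peaks. A fold of 10 or more was reached by 3 of the 20 (15%, 3.21 to 37.9%) and by 14.5% of all peaks. The deposited −log10 q-value ran from 2.60 at Cux1 to 25.4 at Dbx1, with a median of 9.79 against 8.40 in all peaks.

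**Figure D2:**
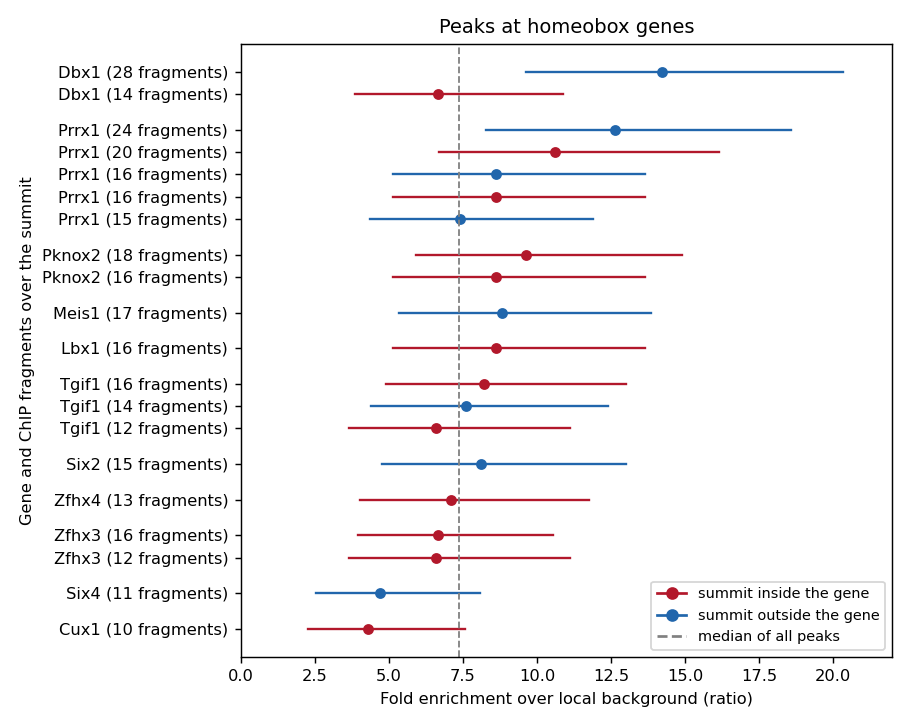
Fold enrichment over the local background (x axis, ratio) of each of the 20 peaks, grouped by gene with its pileup in fragments (y axis). Points are the deposited folds, lines the exact 95% Poisson intervals and the dashed line the median of all peaks, 7.35. Most intervals overlap, and the strongest peaks of Dbx1 and Prrx1 lie above the intervals of Six4 and Cux1.

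Dbx1, a homeobox gene known from the progenitors of interneurons in the embryonic spinal cord, had the strongest peak under the rule used here. The gene lies at chromosome 7, 49631499 to 49636835. The stronger of its peaks, at 49668288 to 49668694, had 28 ChIP fragments over a background of 1.04, a fold of 14.2 (9.61 to 20.3), and stood at place 61 of the 2975 peaks by fold. It lay 31.7 kb upstream of the start site, outside any protein-coding gene. The weaker peak, at 49635185 to 49635600, lay inside the gene 1574 bp downstream of the start site and had 14 fragments over 1.25, a fold of 6.66 (3.84 to 10.9). The intervals of the pair overlap. The highest fold of Dbx1 rests on the distal peak, which had an end of the noncoding gene Gm45985 nearer, at 19.5 kb. With a limit of 10 kb, with spans alone or with ends of noncoding genes, it was 6.66, and Prrx1 then had the highest fold of the listed genes, 10.6 in the first pair of settings and 12.6 in the last. A further peak of 13.2-fold (8.82 to 19.2) stood 62.4 kb upstream of Dbx1. Its nearest protein-coding end, that of Htatip2 at 59803 bp, was beyond the limit of 50 kb, so the rule gave it to no gene.

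Prrx1, which encodes a paired-class homeodomain protein of limb and craniofacial mesenchyme, had the most peaks, 5, at chromosome 1, 163245119 to 163315145. The peaks fell in separate groups, 3 beyond the end of the gene and 2 inside it. Beyond the end of the gene, the peak at 163221595 to 163222174 had 24 fragments and a fold of 12.6 (8.28 to 18.6). The peak at 163222331 to 163222523 had 15 fragments and a fold of 7.40 (4.34 to 11.9). The third, at 163224159 to 163224386, had 16 fragments and a fold of 8.60 (5.13 to 13.6). Their summits lay 23243, 22672 and 20843 bp beyond the 3′ end of the gene, so this group covers a short stretch of DNA, and the pair nearest to each other had summits 571 bp apart. Neighbouring summits were counted separately. Inside the gene, the peak at 163285219 to 163285607 had 20 fragments and a fold of 10.6 (6.69 to 16.1) at 28.2 kb downstream of the listed start site. The peak at 163308696 to 163309067 had 16 fragments and a fold of 8.60 (5.13 to 13.6) at 4897 bp. The summit 28.2 kb into the gene also lay within the noncoding genes Gm20471 and LOC108167740. Other peaks within 100 kb of Prrx1 were nearest to other genes. One of 16.7-fold (11.6 to 23.4) was inside Gorab, 76.4 kb upstream, and one of 5.83-fold (3.67 to 8.86) was nearest to Mroh9, 88.0 kb downstream.

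**Figure D3:**
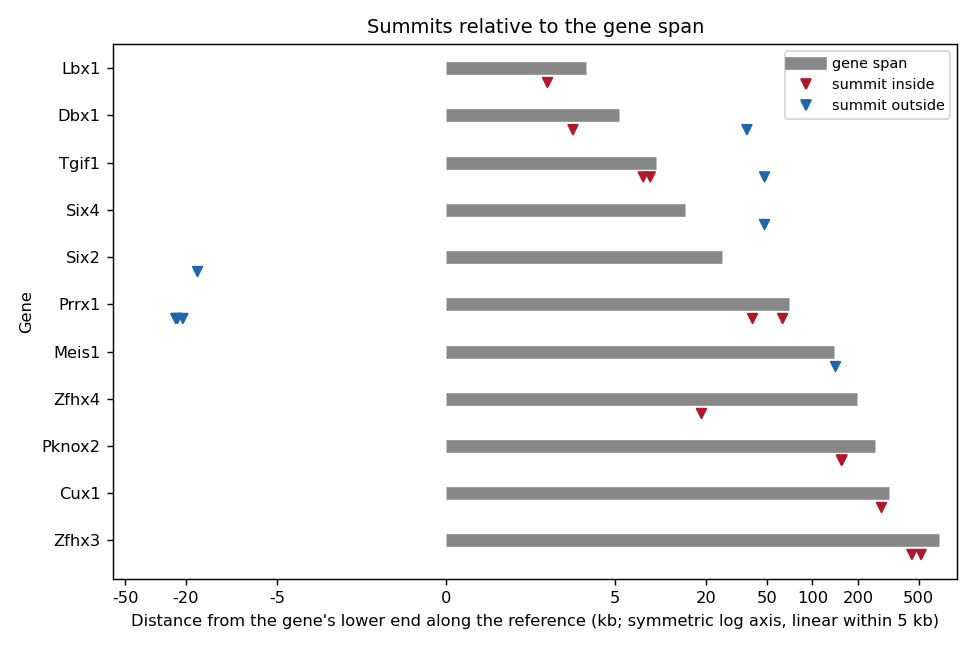
Summits of the 20 peaks (triangles) against the spans of their 11 genes (grey bars), as distance in kb from the lower end of each gene along the reference (x axis, symmetric log scale, linear within 5 kb), with genes on the y axis from short to long. Red triangles are inside the gene and blue ones outside it. In the 4 longest genes all summits are inside, and at Six2 and Six4 the summits are outside.

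Tgif1, a TALE-class repressor that acts in TGF-beta and retinoid signalling, had 3 peaks at chromosome 17, 70844205 to 70853532. The peak at 70851768 to 70852002 had 16 fragments and a fold of 8.20 (4.89 to 13.0), and its summit lay 165 bp upstream of the inner start site whose sequence is shown. The neighbouring peak at 70852538 to 70852852 had 12 fragments and a fold of 6.58 (3.64 to 11.1), with its summit 765 bp downstream of the outer start site. The summits of this pair were 868 bp apart. The third peak, at 70892482 to 70892698, had 14 fragments and a fold of 7.59 (4.38 to 12.4), and lay 39.1 kb upstream of the outer start site, within the noncoding gene Gm26510. The intervals of all 3 Tgif1 peaks overlap.

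The other TALE genes with a peak were Meis1 and Pknox2. Meis1, a partner of Hox and Pbx proteins on DNA, had a peak of 17 fragments and 8.82-fold (5.35 to 13.8) at chromosome 11, 19020448 to 19020706, outside the gene. Its summit was 955 bp from the gene's end and 1637 bp upstream of the listed start site. Pknox2, a relative of the Meis genes whose protein pairs with Pbx, had peaks deep inside a gene of 256 kb at chromosome 9. The peak at 37045967 to 37046181 had 18 fragments and a fold of 9.61 (5.90 to 14.9), and the peak at 37047430 to 37047677 had 16 fragments and a fold of 8.60 (5.13 to 13.6). Their summits were 1476 bp apart, about 100 kb from the nearer end of Pknox2, and lay within the noncoding gene Gm34538.

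In the sine oculis class, the peaks of Six2 and Six4 lay well outside the genes. Six2, known for keeping kidney progenitors undifferentiated, and Six3, a gene of forebrain and eye, are neighbours whose 3′ ends face each other. The peak between them, at chromosome 17, 85645862 to 85646070, had 15 fragments and a fold of 8.09 (4.75 to 13.0). Its summit was 16776 bp from Six2 and 19769 bp from Six3, so the rule gave it to Six2 by a small margin. Six4, which acts in muscle development, had a peak of 11 fragments over a background of 1.56, a fold of 4.69 (2.54 to 8.08), at chromosome 12, 73147451 to 73147622. This summit was 34.1 kb upstream of the nearer Six4 start site and lay inside Mnat1, a gene for a subunit of the CDK-activating kinase. By fold it stood at place 2899 of 2975.

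Lbx1, which is needed for muscle precursors to migrate into the limb, had a peak inside the gene at chromosome 19, 45235431 to 45235835, with 16 fragments and a fold of 8.60 (5.13 to 13.6). The summit was 1171 bp from the nearer end of this short gene of 4.16 kb.

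Zfhx3, Zfhx4 and Cux1, long genes like Pknox2, had their peaks inside. Zfhx3, which encodes a large zinc finger and homeodomain protein of neuronal differentiation, spans 682 kb of chromosome 8 and had a peak at 108730748 to 108731035 of 6.58-fold (3.64 to 11.1, 12 fragments). Its second peak, at 108798053 to 108798224, was of 6.64-fold (3.96 to 10.5, 16 fragments). Their summits lay 16.2 and 83.5 kb downstream of the start site listed for the gene. The related Zfhx4 had a peak at chromosome 3, 5236496 to 5236679, of 7.08-fold (4.01 to 11.8, 13 fragments), 18.4 kb from the nearer end. Cux1, a CUT-class regulator of the cell cycle and of differentiation, had a peak at chromosome 5, 136531973 to 136532207, of 4.30-fold (2.26 to 7.57, 10 fragments), 33.9 kb downstream of the listed start site. This was the lowest fold among the 20, at place 2930 of 2975. The intervals of Cux1 and Six4 lay below those of the strongest peaks at Dbx1 and Prrx1. The summit at Zfhx4, both at Zfhx3, both at Pknox2, the distal ones at Dbx1 and Tgif1 and one at Prrx1 had an end of a long noncoding RNA gene nearer than that of the listed gene, 8 of the 20 in all.

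Of the 20 summits, 2 (10%, exact interval 1.23 to 31.7%) were within 1000 bp of the end of a protein-coding gene, against 866 of the 2519 peaks given to any gene by the rule (34.4%). Within 2500 bp there were 5 (25%, 8.66 to 49.1%), against 40.7%, since summits at Lbx1, Dbx1 and Tgif1 lay just beyond 1000 bp, and the wider interval covers the share of all such peaks. The summit at the inner start site of Tgif1 is among these, as that site is not an end of the gene. Beyond 1000 bp, 12 (60%, 36.1 to 80.9%) were inside a protein-coding gene, against 43.0%. A further 6 (30%, 11.9 to 54.3%) were outside protein-coding genes, against 22.7%. The distal summit at Tgif1 is among these, although it lay within the noncoding gene Gm26510. Another summit lay within 10 kb of 7 of the 20 (35.0%, 15.4 to 59.2%), at Prrx1, Tgif1 and Pknox2, against 14.1%. Being a neighbour is mutual, whereas this interval takes each summit as separate. The median distance to the nearest protein-coding end was 22958 bp for the 20 peaks and 6841 bp for the 2519. No test was made of these differences, and the 2519 peaks include the 20. The comparison does not allow for the larger stretch of DNA that the rule gives to the listed genes. Prrx1 had 5 of the 20 peaks, and without it the share within 1000 bp of a gene end was 13.3%.

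**Figure D4:**
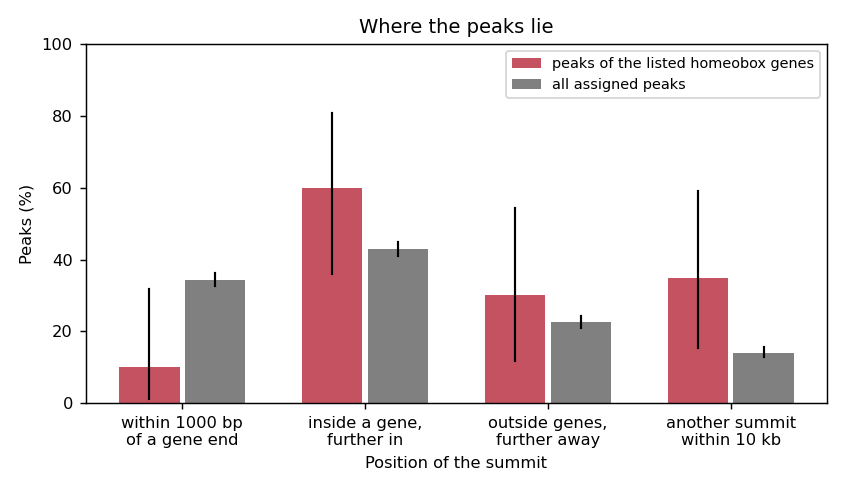
Share of peaks (y axis, percent) by position of the summit (x axis) for the 20 peaks of the listed genes (red) and the 2519 peaks given to any protein-coding gene (grey), as bars with exact 95% binomial intervals as lines. The listed genes have 10% of their peaks within 1000 bp of a gene end, where all genes have 34.4%. Genes here are protein-coding, and the size of the stretch that the rule gives to a gene is not allowed for.

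The surroundings that the rule assigns to a gene differ in size, and they were larger for the listed genes. The stretch in which a summit would be given to the gene had a median of 103.1 kb for the 45 genes and 49.6 kb for all protein-coding genes. Per megabase of that stretch, summed over genes, the listed genes had 3.26 pairs of a gene and a peak (exact Poisson interval 1.99 to 5.03). All genes had 1.50 (1.44 to 1.56). Stretches of different genes may overlap, and a peak given to several genes counts once for each. The 2519 peaks given to any gene made 2639 pairs. The interval takes each peak as separate, although some are close neighbours. The share was also larger in each size class, but 3 of the 4 intervals cover the share of all genes of the class, and the fourth comes close to it. Of those with less than 100 kb, 5 of 22 had a peak (22.7%, exact interval 7.82 to 45.4%), against 7.23% of all genes of that class, and of those with 100 kb or more 6 of 23 (26.1%, 10.2 to 48.4%), against 17.5%. By length of the gene, 4 of 22 genes under 20 kb had a peak (18.2%, 5.19 to 40.3%), against 5.88%, and 7 of 23 longer ones (30.4%, 13.2 to 52.9%), against 14.0%. Members with a peak had a median length of 70.0 kb and those without one of 16.3 kb.

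The limit of 50 kb decided little. Among peaks outside the gene whose nearest end belonged to a listed gene, the farthest within the limit were those of Tgif1 at 39.1 kb and Six4 at 33.4 kb. The nearest beyond it was a peak of 7.22-fold at 117 kb from Six2.

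No peak was given to 34 of the 45 genes. A summit within 100 kb stood at 8 of these, but each was nearer to another gene. Pbx4, a TALE-class partner of Meis and Hox proteins, had the strongest of them, 12.6-fold (8.28 to 18.6) at 29.4 kb downstream of the gene, inside Ndufa13 and 488 bp from an end of Tssk6. Prrx2, the relative of Prrx1, had one of 6.86-fold (3.88 to 11.4) at 37.4 kb upstream, 326 bp from an end of Ntmt1. Six3 shared the peak described for Six2. Six5 had 7.59-fold (4.38 to 12.4) at 32.9 kb, inside Fbxo46, and 8.59-fold (5.47 to 12.9) at 77.3 kb, near Eml2. Pax2, a regulator of kidney development, had 6.58-fold (3.87 to 10.6) at 62.3 kb downstream, nearest to Slf2. Pknox1 had 6.07-fold (3.28 to 10.5) at 80.6 kb, nearest to Cryaa. Meox1, a gene of the somite, had 7.84-fold (4.61 to 12.6) at 90.5 kb, inside Dusp3, and Cux2 had 7.56-fold (4.36 to 12.3) at 93.3 kb, nearest to Ccdc63.

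The remaining 26 genes had no summit within 100 kb. They were Meis2, Meis3, Pbx2, Pbx3, Tgif2, Irx1, Irx2, Irx3 and Irx5 of the TALE class, Six6, the paired-class genes Pitx1, Pitx3, Alx1, Alx4 and Shox2, and the NK-like genes Dbx2, Msx1, Msx2 and Lbx2. To these add Meox2, Satb1, Pax1, Pax5, Pax6, Pax8 and Pax9. The nearest summit was 104 kb away for Pbx2 and 4176 kb for Satb1, a chromatin organiser, and the other distances lay between these. Msx1, known for holding back muscle differentiation, was 1238 kb from the nearest summit. Regions that missed the q-value limit of 0.01 are not in the list, so it shows only that no peak was called near these genes at this depth.

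The share was smaller in homeobox genes outside the list, without a test of the difference. Of 108 further homeobox genes, 15 had a peak (13.9%, 7.99 to 21.9%), and of the 39 genes in the Hox clusters 1 did (2.56%, 0.0649 to 13.5%), Hoxc6 at 8.60-fold. Both intervals cover the 9.63% of all protein-coding genes with a peak by the same rule. The median length was 21.1 kb for the listed genes, 8.48 kb for the further homeobox genes and 3.74 kb for the Hox genes. The interval of the listed genes overlaps that of each of these sets. Among them were Pax7, Pou2f1, Zhx2, Zeb1, Zeb2, Zfhx2, Prox1, Adnp, Zhx3, Lhx6, Dmbx1, Hlx, Homez and Hmx2. Pax7 itself reached 14.7-fold (9.92 to 21.0) and Pou2f1 10.6-fold (6.69 to 16.1).

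The label of the cells could not be checked on RNA, since a peak at a gene is not its expression. Peaks stood at 5 of 8 muscle stem cell markers (62.5%, exact interval 24.5 to 91.5%), namely Pax7, Vcam1, Calcr, Sdc4 and Chrdl2, but not at Itga7, Cd34 and Myf5. They stood at 3 of 4 endothelial markers (75%, 19.4 to 99.4%), namely Tek, Cdh5 and Pecam1, but not at Kdr. Of all protein-coding genes 9.63% had one, a share that does not allow for gene size. The median length was 23.7 kb for the muscle stem cell markers, 53.7 kb for the endothelial ones and 17.2 kb for all protein-coding genes. The 4 fibro-adipogenic and the 4 leukocyte markers had 0 each, with an exact upper limit of 60.2%, so their intervals cover the share of all genes. After filtering there were 10622111 ChIP tags and 20429667 input tags.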

How the data were processed

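Libraries of 50 bp single-end reads were compared, 1 GFP ChIP and 1 input. GRCm38, bcl2fastq 2.16, HISAT2 2.10 and MACS2 2.1.1 are named per the submitters' processing notes, with no role or order. Peaks were called with MACS 2.1.1.20160309 on 1 library against the other, at a q-value limit of 0.01, a fragment length of 172 bp and at most 1 tag per position, per the file headers. Input values were multiplied by 0.520 to match the depths. As deposited, the pileup is an unscaled coverage signal of the ChIP library and the fold is a ratio. The −log10 q-value was deposited too, and the −log10 p-value was not printed. No aligner setting or filter on repeats is given in the sources used here.

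The local background was recovered from pileup and fold, and intervals for a fold are exact Poisson intervals of the pileup with the background held fixed. Genes and their ends came from RefSeq's table of GRCm38.p6. There, 365 genes on patches, scaffolds or unplaced sequence were left out, and all 45 symbols matched, as did 108 of 109 further homeobox symbols. Start sites and strand came from the RefSeq promoter table. Shares carry exact Clopper-Pearson intervals. Peaks and genes are not replicates, and nothing was tested. The assignment was checked on planted peaks. The genome sequence under most peaks was not analysed here.

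Every listed gene with a peak is named with its values, the others with a summit within 100 kb are named with its distance, and the rest are named with a range. Some further homeobox genes are not reported here by name. The genes, lists and rule were chosen with earlier results of these data known. Alternatives were other distances, span or end alone, whole peaks, stronger peaks, lower pileup or background, and merged summits. Added after seeing the data were ends of long noncoding RNA genes and leaving out Prrx1. Python 3.11.15, pandas 2.3.3, numpy 2.4.6, scipy 1.17.1 and matplotlib 3.10.9 were used.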

Additional observations from a re-analysis of the deposited data

How the results depend on the processing

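With only the stronger peaks by q-value (median −log10 q or above), 7 of the 45 genes kept a peak (without Cux1, Six4, Zfhx3 and Zfhx4), with 13 peaks, and 5.23% of all protein-coding genes had one. With the nearest end limited to 10 kb, 13 peaks were left at 9 genes, without Six2 and Six4. With spans alone, 12 peaks were left at 8 genes, without Meis1, Six2 and Six4, against 5.49% of all genes. In the other alternatives 9 to 11 genes had a peak, and 0 genes were added in any. The ratio of the listed genes' share to that of all genes ran from 2.36 (10 kb) to 3.24 (spans alone), against 2.54 in the report. Median fold ran from 7.59 (without Prrx1) to 8.60. The share of peaks at gene ends ran from 5.56% (summits within 1000 bp merged) to 25% (window of 2500 bp). The alternatives change which deposited peaks count for a gene and recompute no fold. Of 110 highest folds of the 11 genes under 10 alternatives, 11 had no value because the gene lost its peaks, and that of Dbx1 was 6.66 with 10 kb, with spans alone and with noncoding gene ends. No paired analysis was possible because there was 1 library of each kind, and none could be left out. At 10 to 28 fragments a peak, counting error is wide, so weaker enrichment may be missing from the list.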
